A study of Mus musculus with 6 samples.

Results

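Metabotropic glutamate receptors are G protein-coupled receptors for glutamate, and 6 genes of the family, Grm2, Grm3, Grm4, Grm5, Grm7 and Grm8, were followed here. They were found by their GRCm38 gene symbol among the 54838 genes of the deposited table, and each of the 6 was among the 19087 genes kept for testing after low genes were removed. The RNAseq experiment compared hippocampi of 3 wild-type and 3 FVB/NJ-Tg(ORAI1)Ibd females at an age of 7 months, with 1 library from 1 hippocampus of each mouse. The transgenic mice carry a cDNA of human ORAI1, the pore protein of store-operated calcium entry, in the Thy1.2 cassette, which drives expression in neurons, and the strain of the wild-type females was not given in the sources used here beyond the word wild-type. Values are counts scaled to a common library size (CPM), or FPKM where different genes are compared, since FPKM also divides by the length of the gene's exons.

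The family falls into groups that couple to different G proteins. Grm5 encodes a group I receptor, which sits mostly around the postsynaptic density and signals through Gq and phospholipase C to release calcium from the endoplasmic reticulum. Grm2 and Grm3 (group II) and Grm4, Grm7 and Grm8 (group III) signal through Gi/o, lower cyclic AMP and, on presynaptic terminals, reduce transmitter release. In the hippocampus Grm2 is known from granule cells and mossy fibres, Grm3 also from astrocytes, and Grm7 from the active zones of many synapses.

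Grm5 (ENSMUSG00000049583) lies at chr7:87584168-88134907 on the plus strand of GRCm38, with 7 annotated transcripts and 10247 bp of exons. Grm2 (ENSMUSG00000023192) lies at chr9:106643095-106656082 on the minus strand, and 470 bp of its exons overlap the antisense gene Gm28111. Grm3 (ENSMUSG00000003974) lies at chr5:9485541-9725170 on the minus strand and has a single annotated transcript. Grm4 (ENSMUSG00000063239) lies at chr17:27422387-27521403 on the minus strand. Grm7 (ENSMUSG00000056755) lies at chr6:110645581-111567230 on the plus strand, and 130 bp of its exons overlap the antisense gene Gm20387. Grm8 (ENSMUSG00000024211) lies at chr6:27275119-28135178 on the minus strand and holds the 96 bp of the microRNA gene Mir592 on the same strand. The counting kept the strand, so that reads of Grm2 and Grm7 were told apart from those of the antisense genes.

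RefSeq promoters of GRCm38.p6, from 250 bases before to 50 bases after a start, were listed for 4 of the 6 genes, with 7 entries among the 32851 of the table. Grm4 and Grm5 were not among them. For each of the other genes the entry nearest to an annotated GENCODE start is shown. The CPM of each of these receptors did not overlap between the genotypes: Grm2 was higher in the transgenic mice, and Grm3, Grm7 and Grm8 were lower. The same held for 34.9% of all tested genes, and none of these 4 receptors was called by edgeR. The sequences run from 5′ to 3′ along the gene, and capitals mark the GC box GGGCGG, searched on both strands.
Grm2, chr9:106656060-106656359, minus strand: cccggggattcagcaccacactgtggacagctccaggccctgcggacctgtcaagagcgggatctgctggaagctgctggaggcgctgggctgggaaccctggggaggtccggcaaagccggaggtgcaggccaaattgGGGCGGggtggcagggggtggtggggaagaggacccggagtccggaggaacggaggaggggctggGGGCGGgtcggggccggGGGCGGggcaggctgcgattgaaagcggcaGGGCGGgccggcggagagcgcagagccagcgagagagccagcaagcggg
Grm3, chr5:9725303-9725602, minus strand: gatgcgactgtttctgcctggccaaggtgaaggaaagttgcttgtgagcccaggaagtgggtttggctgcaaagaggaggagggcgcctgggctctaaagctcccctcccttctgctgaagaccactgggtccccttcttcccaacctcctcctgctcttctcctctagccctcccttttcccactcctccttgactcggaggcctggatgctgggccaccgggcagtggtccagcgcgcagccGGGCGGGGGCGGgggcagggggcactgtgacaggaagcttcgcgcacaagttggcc
Grm7, chr6:110645348-110645647, plus strand: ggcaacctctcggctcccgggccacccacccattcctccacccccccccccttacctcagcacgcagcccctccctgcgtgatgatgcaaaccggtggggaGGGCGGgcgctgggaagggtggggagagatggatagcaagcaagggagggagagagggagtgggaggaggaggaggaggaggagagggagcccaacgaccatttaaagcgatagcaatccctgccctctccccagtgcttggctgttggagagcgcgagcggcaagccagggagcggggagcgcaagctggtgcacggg
Grm8, chr6:28135097-28135396, minus strand: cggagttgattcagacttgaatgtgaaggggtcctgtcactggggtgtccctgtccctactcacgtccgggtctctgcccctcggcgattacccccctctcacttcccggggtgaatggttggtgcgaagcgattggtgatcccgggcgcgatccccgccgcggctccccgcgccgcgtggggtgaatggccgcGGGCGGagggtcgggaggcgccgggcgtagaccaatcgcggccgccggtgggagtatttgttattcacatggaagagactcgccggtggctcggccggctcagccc
The Grm2 window held 4 GC boxes, that of Grm3 held 2 that adjoin each other, and those of Grm7 and Grm8 held 1 each. A GC box was present in 35.7% of all promoters of the table. The GC content was 72.0% for Grm2, 63.7% for Grm3, 66.7% for Grm7 and 67.0% for Grm8, against a median of 52.7% over all promoters. The Grm8 window had 33 CpG and the Grm2 window 22, against a median of 7. The cyclic AMP response element TGACGTCA, which 1.79% of all promoters held, was in none of the 7 windows, nor was CACGTG (7.15% of all promoters) or TATAAA (13.6%). The shorter TGACG, the core of this element, held by 20.8% of all promoters, was found only in 1 of the other windows of Grm8. A match of letters is a description of the window and not a site.

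The libraries held 37710188 to 52497799 counts in the wild-type and 37414241 to 47027279 in the transgenic mice, with 27237 to 28352 genes detected. The targeted gene followed the labels. Orai1 was at 7.47 ± 0.528 CPM (SD, n = 3) in the wild-type and at 320.2 ± 9.54 CPM (SD, n = 3) in the transgenic mice, although the counts stand on the mouse gene and the cDNA is human. Thy1, the gene of the cassette, had a log2 fold change of 2.66. The neuronal markers of the tissue (8, Snap25 and Map2 the highest) were all detected, and their sum was 6984 to 7317 CPM in the wild-type and 6823 to 6922 CPM in the transgenic mice, lower without overlap, which is also the direction of Grm5. None of them was called by edgeR (1, Map2, at an unadjusted p under 0.05, 1 by DESeq2, 0 by limma-voom), and their median log2 fold change was -0.00025. Markers of the choroid plexus moved with the genotype. All 15 of them (Ttr and Kl the highest) were called lower in the transgenic mice, at a median of -2.78 on the log2 scale, and their summed level was 2479 to 4439 CPM in the wild-type and 248 to 488 CPM in the transgenic mice. The 7 ependymal markers had negative fold changes with none called by edgeR (2 at an unadjusted p under 0.05, 2 by DESeq2, 0 by limma-voom), at 56.8 to 79.1 CPM in sum against 43.9 to 54.2 CPM.

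Among the receptors the data showed a fall of Grm5, the receptor with the highest level per length, in the transgenic hippocampi. Grm5 was the 1 member of 6 called at an adjusted p under 0.05, where 7.10% of all tested genes were called, 3.10% higher and 4.00% lower. Of the group II receptors Grm2 was higher and Grm3 lower, and the 3 group III receptors were all lower, each without passing the adjusted threshold. The CPM of the genotypes did not overlap for 5 of the 6 members, 4 of them lower and Grm2 higher, against 34.9% of all tested genes, of which 16.9% higher and 17.9% lower. An unadjusted p under 0.05 was reached by 4 members, Grm5, Grm8, Grm7 and Grm2, against 27.8% of all tested genes. The median log2 fold change of the members was -0.14, and that of all tested genes was -0.010.

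**Figure D1:**
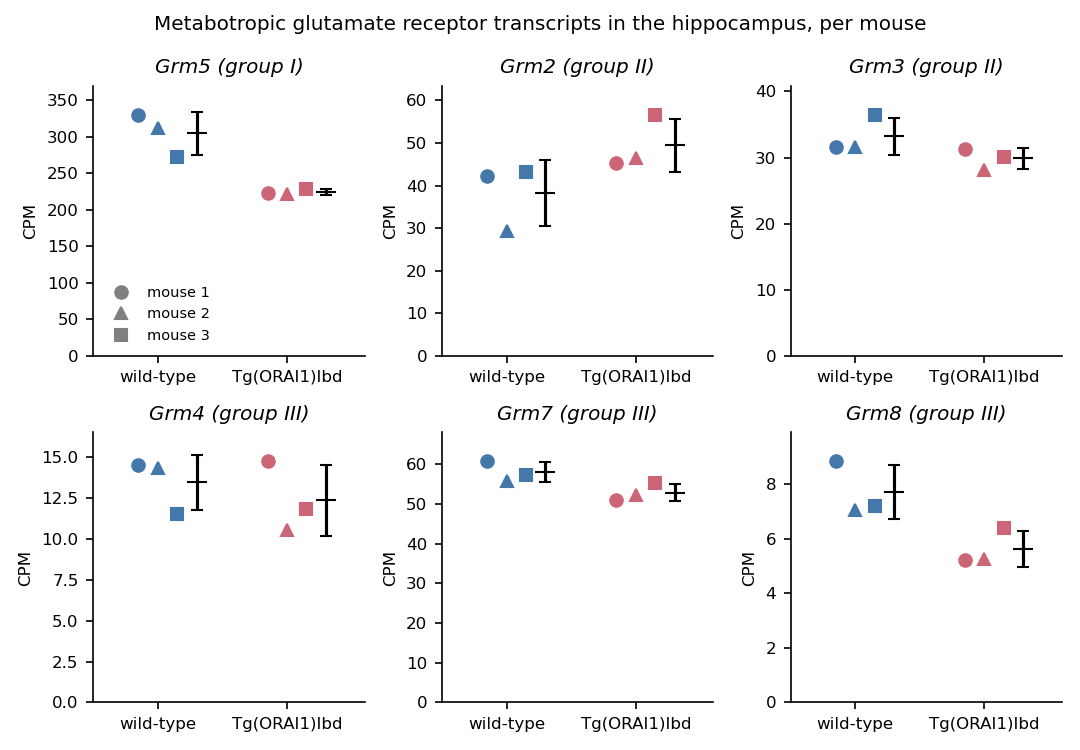
Level of each receptor transcript in CPM (y axis, from 0) for the 3 wild-type and the 3 Tg(ORAI1)Ibd mice (x axis), with 1 symbol per mouse and black bars for the mean and SD. The transgenic mice sit between 221.7 and 228.9 CPM for Grm5, below all wild-type mice, and only for Grm4 do the genotypes overlap.

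Grm5 was measured in the wild-type mice at 329.6, 312.0 and 272.3 CPM and in the transgenic mice at 222.6, 221.7 and 228.9 CPM. All 3 transgenic mice lay below the lowest wild-type mouse, by 43.4 CPM at the nearest. The means were 304.6 ± 29.4 CPM (SD, n = 3) and 224.4 ± 3.89 CPM (SD, n = 3). The log2 fold change was -0.44 with an SE of 0.071 and a 95% interval from -0.61 to -0.28, so that Grm5 fell by 26.4%, with an adjusted p of 0.0222 by the quasi-likelihood test of edgeR after Benjamini-Hochberg adjustment. There were 288 genes with an adjusted p no larger than that. The transgenic mice were close to each other, with a coefficient of variation of 1.74% where counting alone gives 1.05%, and the wild-type mice were spread over 9.64%, where counting gives 0.858%. The call depended on which mice were in the fit. The adjusted p by the same test was 0.109 without the first or without the second wild-type mouse, 0.0760 without the second and 0.0868 without the third transgenic mouse, and it was 0.0583 with offsets for GC content, while the log2 fold change stayed between -0.51 and -0.31 over all of these fits and the others tried.

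Grm2, the presynaptic group II receptor of granule cells, was measured at 42.2, 29.4 and 43.1 CPM in the wild-type and at 45.2, 46.4 and 56.6 CPM in the transgenic mice. The transgenic mice were all above the wild-type mice, but the nearest were only 2.08 CPM apart, less than the SD of either genotype (38.2 ± 7.69 and 49.4 ± 6.23 CPM, SD, n = 3 each). The log2 fold change was 0.37 ± 0.15 (SE) with a 95% interval from 0.011 to 0.73, and the adjusted p was 0.169 by the quasi-likelihood test of edgeR after Benjamini-Hochberg adjustment. The second wild-type mouse was the lowest, and without it the log2 fold change was 0.23.

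Grm3, the group II receptor also found on astrocytes, was measured at 31.5, 31.6 and 36.5 CPM in the wild-type and at 31.3, 28.1 and 30.2 CPM in the transgenic mice. The groups did not overlap, but the first transgenic mouse was 0.221 CPM below the lowest wild-type mouse. The log2 fold change was -0.15 ± 0.075 (SE), and its 95% interval from -0.33 to 0.023 held 0. It was -0.075 without the third wild-type mouse and -0.086 without the second transgenic mouse. The adjusted p was 0.234 by the quasi-likelihood test of edgeR after Benjamini-Hochberg adjustment. The ratio of Grm2 to Grm3 in FPKM was 0.834, 0.579 and 0.737 in the wild-type mice and 0.899, 1.03 and 1.17 in the transgenic mice. Grm3 was thus above Grm2 per length in each wild-type mouse, and the ratio was higher in every transgenic mouse than in any wild-type mouse.

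Of the group III receptors, which reduce release from presynaptic terminals, Grm7 had the highest level. It was measured at 60.7, 55.8 and 57.3 CPM in the wild-type and at 51.0, 52.3 and 55.1 CPM in the transgenic mice. The genotypes lay side by side without overlap, with 0.683 CPM between the nearest mice. The log2 fold change of -0.13 ± 0.053 (SE) was the one with the smallest SE among the members, with a 95% interval from -0.26 to -0.011 and an adjusted p of 0.151 by the quasi-likelihood test of edgeR after Benjamini-Hochberg adjustment. Without the first wild-type mouse the log2 fold change was -0.085.

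Grm8, a group III receptor with few transcripts in this tissue, had 462, 297 and 273 counts in the wild-type and 243, 201 and 239 counts in the transgenic mice. In CPM these were 8.83, 7.04 and 7.21 against 5.21, 5.27 and 6.38. The highest transgenic mouse was below the lowest wild-type mouse, and the first wild-type mouse was the highest of all. The log2 fold change was -0.46 ± 0.13 (SE) with a 95% interval from -0.77 to -0.15, close to that of Grm5 but with a wider interval, and the adjusted p was 0.0770 by the quasi-likelihood test of edgeR after Benjamini-Hochberg adjustment. The coefficient of variation was 12.8% in the wild-type and 11.8% in the transgenic mice, where counting alone gives 5.39% and 6.63%. With DESeq2's Wald test, which called 13.8% of the genes it tested, Grm8 had an adjusted p of 0.0450. The FPKM ratio of Grm7 to Grm8 was 11.6, 13.3 and 13.4 in the wild-type and 16.4, 16.7 and 14.5 in the transgenic mice.

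Grm4, the remaining group III receptor, was measured at 14.5, 14.3 and 11.5 CPM in the wild-type and at 14.7, 10.5 and 11.8 CPM in the transgenic mice. The first transgenic mouse was the highest of all 6, and the genotypes overlapped. The log2 fold change was -0.12 ± 0.14 (SE) with a 95% interval from -0.46 to 0.21, which leaves a difference in either direction possible, and the adjusted p was 0.627 by the quasi-likelihood test of edgeR after Benjamini-Hochberg adjustment. Without the second transgenic mouse the log2 fold change was 0.0070. Grm6, the receptor of retinal bipolar cells, had 0 counts in 5 libraries and 2 counts in 1 transgenic library and was not tested.

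**Figure D2:**
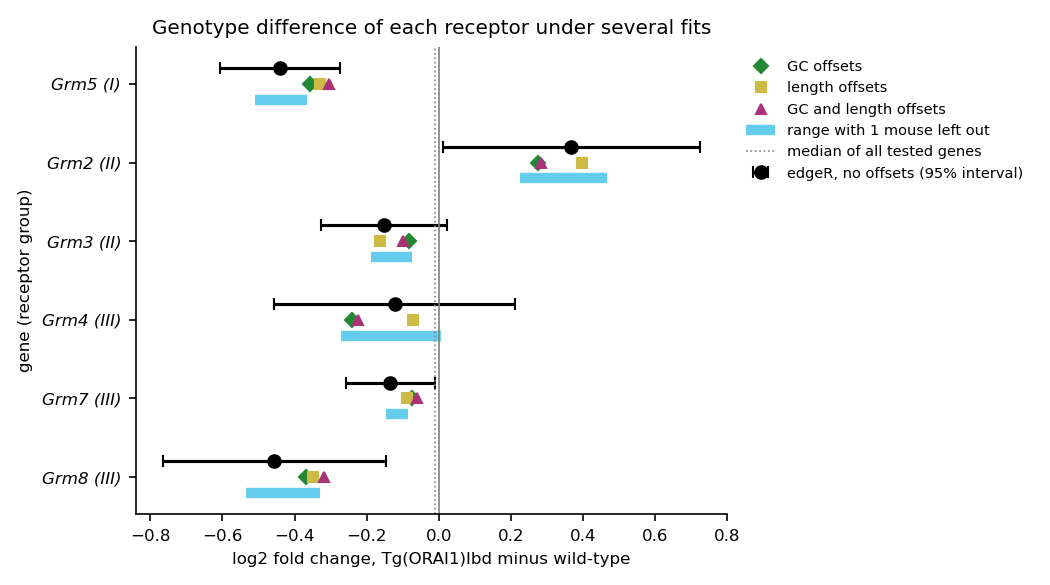
Log2 fold change of each receptor, transgenic minus wild-type (x axis), with the edgeR estimate and its 95% interval in black, the estimates with offsets for GC content, for length and for both, and a blue bar for the range when 1 mouse is left out. Grm5 and Grm8 stay below -0.30 in every fit drawn, and Grm2 stays above 0.22.

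Fold changes in these libraries followed the GC content of the transcripts, taken in deciles of the genes with a mean log2 CPM above 1. In the decile of genes with the lowest GC content the median log2 fold change was -0.18, and in the decile with the highest it was 0.14. Grm5 (46.3% GC) and Grm8 (45.8%) were in the third decile, where the median was -0.073, and Grm3 (47.6%) and Grm7 (48.1%) were in the fourth, where it was -0.040. Grm2 (57.8%) was in the ninth decile, with a median of 0.12, and Grm4 (59.8%) in the highest. All members but Grm2 lay below the median of their decile, Grm5 by -0.37 and Grm8 by -0.38, and Grm2 lay 0.25 above it. With GC offsets in the edgeR fit, which called 2.10% of all genes, the log2 fold change was -0.36 for Grm5, -0.37 for Grm8, -0.24 for Grm4, -0.082 for Grm3, -0.075 for Grm7 and 0.28 for Grm2, and none of the members was called, while Grm5 and Grm8, 2 of the 6, had an unadjusted p under 0.05, against 20.8% of all genes in that fit.

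**Figure D3:**
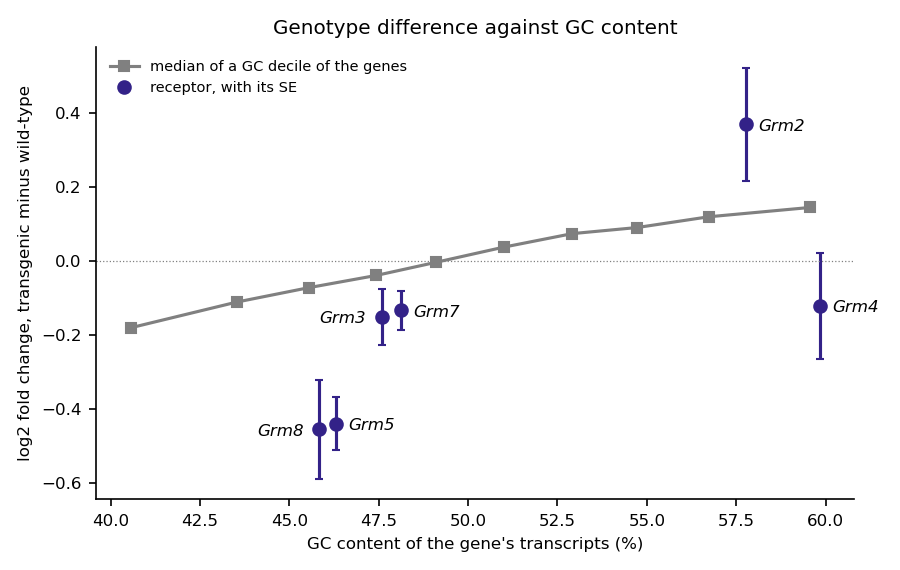
Log2 fold change, transgenic minus wild-type (y axis), against the GC content of the transcripts in percent (x axis) for the 6 receptors with their SE, with grey squares for the median of each GC decile of the genes. Grm5, Grm8, Grm3 and Grm7 lie below the grey line at 45.8% to 48.1% GC, Grm4 lies below it at 59.8%, and Grm2 lies above it.

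The composition of the family does not depend on how the libraries are scaled, and it was compared per mouse in FPKM. Shares and ratios were not corrected for the GC trend, whose decile median was 0.12 for Grm2 and -0.073 for Grm5. The part of that trend in the composition was not tested. Grm5 was at 29.7 ± 2.77 FPKM in the wild-type and 21.9 ± 0.433 FPKM in the transgenic mice (SD, n = 3 each). Over all 6 mice the order of the mean levels was Grm5, Grm3, Grm7, Grm2, Grm4 and Grm8, which was also that of the wild-type mice. In the transgenic mice the means of Grm2 (10.1 ± 1.30 FPKM) and Grm3 (9.77 ± 0.487 FPKM, SD, n = 3 each) were within their spread of each other, and Grm2 was the lower of the pair in the first of these mice (9.16 against 10.2 FPKM). Grm8 was the lowest, at 0.777 ± 0.0972 and 0.567 ± 0.0682 FPKM. Exon lengths merge all annotated transcripts of a gene, 7 for Grm5 and Grm8 and 1 for Grm3, so an order in FPKM rests on that annotation.

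Neighbours in this order were set side by side by their log2 ratio within each mouse, as a description, since the order was taken from the same mice. Grm5 was above Grm3 in all 6 mice, with a log2 ratio of 1.45 ± 0.259 in the wild-type and 1.16 ± 0.0759 in the transgenic mice (SD, n = 3 each). Grm3 was above Grm7 in 6 of 6 mice, but by a log2 ratio of only 0.14 ± 0.114 (SD, n = 6), little more than its spread. Grm2 was above Grm4 in all 6 mice by 2.04 ± 0.449, and Grm4 above Grm8 by 1.69 ± 0.297 (SD, n = 6). Grm7 and Grm2 did not differ beyond their spread over the 6 mice (0.094 ± 0.340, SD, n = 6). Grm7 was above Grm2 in the 3 wild-type mice, by 0.26, 0.66 and 0.14 on the log2 scale, and below it in the 3 transgenic mice, at -0.094, -0.095 and -0.30.

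As a share of the summed FPKM of the 6 receptors, Grm5 took 49.7%, 51.2% and 44.5% in the wild-type and 41.1%, 42.0% and 40.0% in the transgenic mice. The share of Grm2 was 13.3%, 10.1% and 14.8% in the wild-type and 17.5%, 18.4% and 20.7% in the transgenic mice. Neither share overlapped between the genotypes, and the means differed by -7.42 percentage points for Grm5 and by 6.14 points for Grm2. The shares of Grm7 (16.1% and 16.8%) and Grm8 (1.26% and 1.06%) did not overlap either. For these 4 genes the exact two-sided permutation test gave p = 0.1, the smallest that 3 mice against 3 allow, and 0.15 after adjustment over the 6 members. For Grm3 (17.8% and 18.4%) and Grm4 (3.67% and 3.87%) the exact permutation p was 0.8. The summed FPKM itself was 59.5 to 64.6 in wild-type and 51.6 to 55.8 in transgenic hippocampi (exact permutation p = 0.1).

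**Figure D4:**
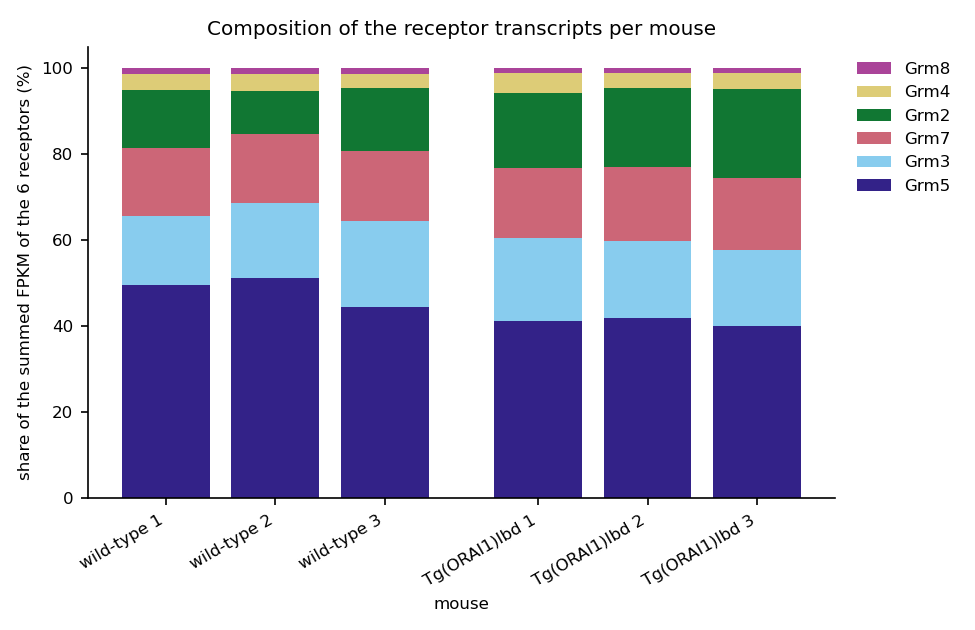
Share of each receptor in the summed FPKM of the 6 receptors in percent (y axis), 1 stacked bar per mouse (x axis). The Grm5 segment at the base ends at 44.5% or more in the wild-type and at 42.0% or less in the transgenic mice, and the Grm2 segment is thicker in each transgenic mouse.

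In bulk tissue, fewer cells of a type and less RNA per cell cannot be told apart. The subfields and cell types that express these receptors were therefore set beside them by their markers. Granule cell markers (8, Calb1 and Prox1 the highest) had none called by edgeR (1 at an unadjusted p under 0.05, 1 by DESeq2, 0 by limma-voom), and their sum was 389 to 395 CPM in the wild-type and 413 to 445 CPM in the transgenic mice, without overlap, in the direction of Grm2. Of the 8 granule cell markers 6 had a positive and 2 a negative log2 fold change, with a median of 0.047. Calb1 had a log2 fold change of -0.11 and Prox1 of 0.020. CA1 markers (6, Mpped1 and Wfs1) summed to 533.5 to 576.8 CPM and 512.4 to 637.1 CPM, and CA3 markers (6, Cpne4 and Hs3st4) to 334.8 to 357.2 CPM and 345.2 to 376.3 CPM, with none called by edgeR (0 and 3 at an unadjusted p under 0.05, 0 and 1 by DESeq2, 0 and 0 by limma-voom). Interneuron markers (9, Gad1 and Gad2) summed to 712.6 to 870.7 CPM and 606.2 to 763.5 CPM, and 1 of them was called, Gad2, the smaller glutamate decarboxylase, with a log2 fold change of -0.52, which is 11.1% of the list against 7.10% of all genes (3 at an unadjusted p under 0.05, 1 by DESeq2, 1 by limma-voom). Astrocyte markers (12, Aldoc and Gfap), of interest for Grm3, summed to 2029 to 2756 CPM and 2134 to 2817 CPM, with 1 called lower, the bicarbonate transporter Slc4a4, or 8.33%, near the 7.10% of all genes.

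Of the other lists, oligodendrocyte (10 markers, Mbp among them), precursor (6, Gpr17 and Pdgfra), microglia (8, Csf1r among them) and thalamus and habenula markers (11, Calb2 and Prkcd) had none called by edgeR, with median log2 fold changes of 0.079, 0.041, 0.32 and 0.016 and with 0, 2, 2 and 1 genes at an unadjusted p under 0.05. DESeq2 called 0, 1, 1 and 0 of them and limma-voom called none. Endothelial markers (6, Flt1 and Itm2a) had 1 called higher, the tight junction gene Cldn5 (16.7% against 7.10% of all genes), and a median of 0.12. The calls of Gad2, Slc4a4 and Cldn5 were lost with GC offsets (adjusted p = 0.0823, 0.132 and 0.107 by edgeR), at log2 fold changes of -0.41, -0.21 and 0.53. No marker of any list was at 0 in all libraries. The part of any of these lists, or of the choroid plexus genes, in the receptor values was not tested.

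The signalling partners of the receptors were read from lists by their role. In the Gq arm of group I receptors (G protein subunits, phospholipases, IP3 receptors, kinases and channels), 2 of 18 tested genes were called, both lower, which is 11.1% against 7.10% of all genes. Both are phospholipase C isoforms that Gq activates. Plcb1 was at 255.7, 259.4 and 241.6 CPM in the wild-type and at 219.2, 204.1 and 209.9 CPM in the transgenic mice (log2 fold change -0.26 ± 0.049 SE, adjusted p = 0.0312 by the quasi-likelihood test of edgeR after Benjamini-Hochberg adjustment). Plcb4 was at 35.2, 34.8 and 30.5 CPM against 24.1, 22.3 and 27.7 CPM (log2 fold change -0.44 ± 0.094 SE, adjusted p = 0.0390 by the same edgeR test). Neither pair of groups overlapped. With length offsets the log2 fold change was -0.14 for Plcb1 and -0.34 for Plcb4, and neither was called (adjusted p = 0.171 and 0.0716 by edgeR). With GC offsets Plcb1 was at -0.16 and Plcb4 at -0.34, again without a call. The median log2 fold change of the list was -0.19, and it was -0.10 with GC offsets and -0.091 with length offsets.

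In the Gi/o arm of group II and III receptors (G protein subunits, adenylyl cyclases and inwardly rectifying potassium channels), 2 of 21 genes were called higher and 1 lower, which is 14.3% against 7.10% of all genes (3.10% higher and 4.00% lower). Gnaz, a Gi/o family alpha subunit, was higher by 0.26 and Gng3, a gamma subunit, by 0.24 on the log2 scale, with adjusted p of 0.0332 and 0.0343 by the quasi-likelihood test of edgeR after Benjamini-Hochberg adjustment. Kcnj3, a subunit of the G protein-gated potassium channel, had a log2 fold change of -0.25 (adjusted p = 0.0450 by the same edgeR test), which was -0.12 with GC offsets and was not called with GC or length offsets (adjusted p = 0.279 and 0.0757 by edgeR). Gnaz and Gng3 were not called with GC offsets either (adjusted p = 0.0982 and 0.0894 by edgeR), and Gng3 was not called with length offsets (0.0882). The median of this list was -0.067.

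Among 19 scaffolds and partners, 1 gene was called in each direction by edgeR, which is 10.5% against 7.10% of all genes, and the median was -0.092. DESeq2 called 6 of the 19, where it called 13.8% of all genes, and limma-voom called 4, where it called 1261 of all 19087 genes. Homer3, of the Homer family that ties group I receptors to IP3 receptors, was at 48.9 ± 5.34 CPM in the wild-type and 62.8 ± 2.05 CPM in the transgenic mice (SD, n = 3 each; log2 fold change 0.36, adjusted p = 0.0422 by the quasi-likelihood test of edgeR after Benjamini-Hochberg adjustment). Frmpd4, a postsynaptic protein that binds Homer and group I receptors, was at 114.7 ± 8.04 CPM and 89.7 ± 2.72 CPM (SD, n = 3 each; log2 fold change -0.36, adjusted p = 0.0249 by the same edgeR test). Homer1 and Homer2 had log2 fold changes of -0.19 and -0.39 and were not called by this edgeR fit.

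Of 12 genes of receptor desensitization 1 was called, Arrb2, the beta-arrestin 2 gene, higher by 0.26, and of 14 genes of glutamate and N-acetylaspartylglutamate handling 1 was called, Slc17a7, the vesicular glutamate transporter of most hippocampal principal cells, also higher by 0.26. These counts, 8.33% and 7.14% of the lists, are near the 7.10% of all genes. None of the 9 genes of the proteins made or needed in receptor-dependent long-term depression was called by the quasi-likelihood test of edgeR (3 had an unadjusted p under 0.05, where 27.8% of all genes did, and 1 was called by DESeq2, where 13.8% of all genes were, and 0 by limma-voom), and their median log2 fold change was 0.0056. With length offsets Gnaz, Homer3 and Slc17a7 were the genes of these lists still called. With GC offsets in edgeR no gene of these 6 lists was called, against 2.10% of all genes, and 25 of the 93 genes (26.9%) had an unadjusted p under 0.05, against 20.8% of all genes.

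**Figure D5:**
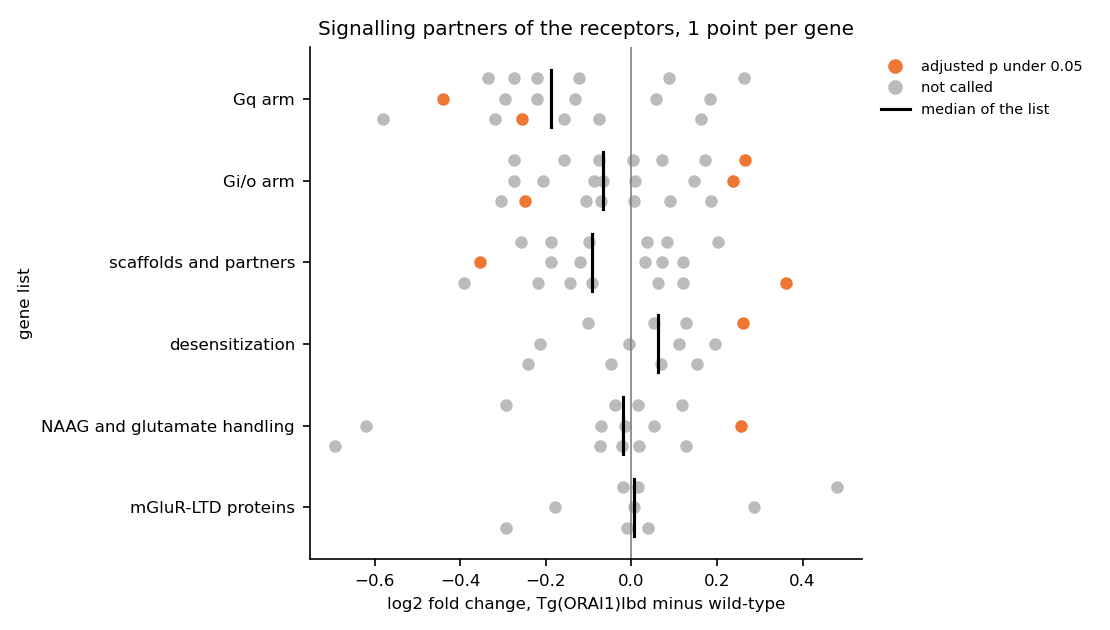
Log2 fold change, transgenic minus wild-type (x axis), of each tested gene in the 6 lists of signalling partners (y axis), with called genes in orange, the others in grey and a black line at the median of each list. The Gq arm lies farthest to the left, with a median of -0.19 and both called genes below 0.

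The genes whose log2 CPM was most like that of each receptor over the 6 libraries were taken among 12339 genes with a mean of at least 5 CPM. They were Aftph and Dhx15 for Grm5 (Pearson r of 0.999 for both), Cryzl1 and Prkd2 for Grm2 (0.983 and 0.981), Srl and Abhd1 for Grm3 (0.980 and 0.978), Usp7 and Gmeb2 for Grm4 (0.998 and 0.996), Pdzrn3 and Zfp738 for Grm7 (0.993 and 0.992), and Mre11a and Zbtb37 for Grm8 (0.995 and 0.994). Of the 12339 genes, an r above 0.95 was reached by 420 for Grm5, 121 for Grm8, 103 for Grm7 and 93 for Grm4. It was reached by only 14 for Grm2 and 6 for Grm3. When the genotype means were taken out first, the nearest genes were Bend3 and Tfg for Grm5, Pth1r and Hdac9 for Grm2, Ckap5 and Pde8b for Grm3, Kbtbd11 and Sart3 for Grm4, D10Wsu102e and N4bp2l2 for Grm7, and Mre11a and Csrnp2 for Grm8. Mre11a was the 1 gene named by both measures. All values of a library share its depth and its GC trend.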

How the data were processed

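Polyadenylated RNA of 3 wild-type and 3 Tg(ORAI1)Ibd hippocampi was sequenced, 1 library per mouse. The authors ran Trimmomatic to drop reads with adapters or of low quality, aligned the rest to mm10 with STAR and counted them on Ensembl 95 genes with featureCounts v1.5.0-p1 (reverse-stranded, mapping quality of at least 3), and they deposited these raw counts per gene, with exon lengths in bp, without normalization. The command took read pairs as fragments and the stated run type was paired-end, while the stated read length named a single read. Whether a count is a pair or a read is therefore not settled. FPKM are per count, and the spread expected from counting alone takes each count as independent. Libraries were grouped by their labels.

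Genes were filtered with filterByExpr (minimum count of 10) and scaled by TMM, and genotypes were compared with the quasi-likelihood test of edgeR 4.0.16 (R 4.3.3) over all 6 libraries, with Benjamini-Hochberg adjustment over 19087 genes and a threshold of 0.05. NOISeq, which the study used, was not run. CPM are relative to scaled library totals, log2 CPM had a prior count of 2, and FPKM were computed from counts, deposited lengths and unscaled totals. GC content was taken from the GENCODE M21 transcripts, and 54723 gene identifiers were matched to a symbol. Offsets were loess curves (span of 0.5) on GC content or length. DESeq2 1.42.0, limma 3.58.1, other scalings and filters, and leaving out each mouse were tried as alternatives. A test of neighbours in the order of levels is not given, because the order came from the same mice. Shares and sums were tested by exact permutation with Python 3.11.15 and scipy 1.17.1. An exact two-sided permutation p of 3 mice against 3 cannot fall below 0.1, and for genes with few counts, such as Grm8, counting limits the precision.

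All members, the transgene genes, the called genes of each pathway list (at most 6), the 2 most abundant markers of each marker list and the 2 nearest genes to each member were named; Grm6 was named as the untested relative, and Homer1, Homer2, Trpc5, Mapk3, Slc4a4, Cldn5 and Gad2 were named after their values were seen. The members and the lists were chosen with earlier results of these data known. Some genes covered by the rule are not reported here. In simulated counts for the same genes and libraries, with 200 genes changed by a log2 fold change of 1, the edgeR fit found 95% of them, and 5.94% of its calls were false. That change was larger than any seen in a member (the largest was -0.46, for Grm8), and no GC trend was simulated. The 95% therefore does not apply to the receptors that were not called.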

Additional observations from a re-analysis of the deposited data

How the results depend on the processing

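Grm5, Grm8, Grm3 and Grm7 kept a negative and Grm2 a positive log2 fold change in every fit tried, and Grm4, which ran from -0.27 to 0.0070 with 1 mouse left out, turned positive without the second transgenic mouse. The number of members called was 1. It was 2 with DESeq2's Wald test, 0 with GC offsets, 0 with GC and length offsets together, and 0 to 1 with 1 mouse left out. The adjusted p of Grm5 ran from 4.25e-06 (DESeq2) to 0.0604 (GC and length offsets) over the alternatives that kept all mice, and from 0.00818 to 0.109 with 1 mouse left out. Over all genes 1355 were called, and 2230 with DESeq2, 401 with GC offsets, 771 with length offsets, 373 with both, and 77 to 1149 with 1 mouse left out. Of the 401 genes, 373 were among the 1355. The cause of these changes was not tested.

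The replicate numbers of the labels do not name a shared litter or day. Over 11191 genes the deviations of same-numbered mice had correlations from -0.357 to 0.399, and 2 of 6 libraries were best correlated with their own number. With the replicate number as a block 738 genes were called, 466 with GC offsets as well and 596 with length offsets as well, and Grm5 was the 1 member called in each of these fits. In the pathway lists the block ended the calls of Plcb1, Plcb4, Gnaz, Gng3, Arrb2 and Slc17a7 (adjusted p of 0.0512 to 0.0675 by edgeR, with log2 fold changes of -0.26, -0.44, 0.26, 0.24, 0.26 and 0.26), kept those of Kcnj3, Homer3 and Frmpd4, and added Trpc5, Homer2 and Mapk3 (0.0247, 0.0363 and 0.0445). In the marker lists the block called 1 of the 8 granule cell markers, higher, where it called 3.87% of all genes. It also called 1 of the 6 precursor markers, Pdgfra, lower (adjusted p = 0.0491 by edgeR). The calls of Slc4a4 and of the endothelial marker Cldn5 were lost with the block.

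Without division by length, the log2 ratio of Grm3 to Grm7 was -0.81 and the share of Grm7 differed by 1.35 points, by construction of CPM. With 1 mouse left out, the log2 ratio of Grm7 to Grm2 ran from -0.018 to 0.17, the difference in share of Grm3 from -0.39 to 1.63 points and that of Grm4 from -0.19 to 0.43 points.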
